A study of Mus musculus with 6 samples.

Results

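Genes that modify, fold, move or trim collagen chains, 10 in number, are described here across 6 arrays of the mouse Sertoli cell line TM4. They are the prolyl hydroxylase genes P4ha1, P4ha2 and P3h1, the lysyl hydroxylase gene Plod2, the chaperone gene Serpinh1, the isomerase gene Fkbp7, the translocation gene Tram2, the propeptidase genes Adamts2 and Adamts3, and the cross-linking gene Loxl2. All 10 genes were found, at 17 of the 45269 probes on the array, among 2002 genes that could be named. Each had entered the authors' deposited table of called probes on these same arrays, so the difference between the groups had already chosen it. The values of the 10 genes in that comparison are therefore given as a description, without a test of their own.

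TM4 is a mouse line of Sertoli origin, and Sertoli cells are the supporting cells that nurse germ cells inside the seminiferous tubule. The first group of 3 samples had been transfected with a pool of 4 siRNAs against Gata4, which encodes a GATA-binding transcription regulator of gonadal somatic cells and heart, and the second group of 3 with a non-targeting (NT) siRNA. The series' design text states 3 samples per group but numbers the controls from 3 to 6, which would make 4, so the groups here follow the sample titles. Both groups had the same transfection reagent and a final siRNA concentration of 0.1 µM, while the passage number differs between the sample labels, 12, and the treatment protocol, 13. The time from transfection to harvest is not given in the sources used here. Both groups come from 1 cell line, and no label describes the replicates as independent cultures, so every spread below is the spread between these samples and may be technical. The siRNAs are shown because they are the only labelled difference between the groups. They are written 5′ to 3′ as the protocol gives them, and the protocol does not say whether they are the sense or the guide strand.
Gata4 siRNA 1: agagaauagcuucgaacca
Gata4 siRNA 2: ggauauggguguuccgggu
Gata4 siRNA 3: cugaauaaaucuaagacgc
Gata4 siRNA 4: ggacauaaucaccgcguaa
NT siRNA: ugguuuacaugucgacuaa

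Collagen chains are hydroxylated on proline and lysine while they enter the endoplasmic reticulum, fold there into a triple helix with the help of dedicated chaperones, and are secreted as procollagen. Proteases outside the cell then remove the propeptides, and oxidases of the lysyl oxidase family cross-link the fibres or networks. Prolyl 4-hydroxylation gives the helix its thermal stability, and hydroxylated lysines are sites of sugar attachment and of cross-links. In the testis, collagens lie in the basement membrane under the Sertoli cells and in the peritubular wall.

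Every value is a deposited intensity in linear units, from which the authors' processing had already subtracted background, so that values below 0 occur. The sorted columns nearly coincide, with median intensities between 6.7 and 6.8. A noise floor of 17.1 intensity units marks where a probe can be told from background; 95% of the negative values are smaller than it in absolute size. In the limma fit 17740 probes above that floor on at least 3 of 6 arrays were tested. NT siRNA array 3 stood apart most, with the lowest array weight, 0.379, against 0.786 to 1.97 for the other arrays. No probe was named for Gata4, so the knockdown could not be checked at its target and Gata4 is not analysed here. Precision is limited throughout by having 3 arrays in a group. In a bulk sample, fewer cells expressing a gene and less RNA per cell cannot be told apart.

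All 10 genes had lower intensities in Gata4 siRNA cells than in NT siRNA cells. At the brightest probe of each gene, the Gata4 siRNA mean intensity lay between 0.288 of the NT siRNA mean for Tram2 and 0.649 for P4ha2, with a median ratio of 0.555. On the log2 scale the median difference of the 10 genes was -0.79, with a range from -1.18 to -0.62, against a median of 0.01 over all 17740 probes tested. In all 10 genes, and at all 17 of their probes, every Gata4 siRNA array was below every NT siRNA array. That pattern was found at 16.2% of all probes tested and at 49.1% of the 1989 named genes tested. Both Tram2 probes met the filter of 3 arrays only with NT siRNA arrays. Above the noise floor were 2 Gata4 siRNA arrays at the brightest Tram2 probe and 0 at the dimmer one. The separation of Tram2, and its call as lower, are therefore no support. In the limma fit over all probes (Benjamini-Hochberg adjusted p under 0.05), 9 of the 10 genes were called lower, 0 higher, and Plod2 did not pass. With 3 arrays per group, a gene that did not pass is not shown to be unchanged. The same call was made for 4.71% of all probes and for 29.5% of named genes, and 8.78% of probes were called in either direction. All 10 genes were at least 1.5-fold lower on the log2 scale, as were 4.94% of all probes. These counts are printed for orientation only, because the authors had selected the genes from this comparison. Leaving out 1 array lowered the count of genes called lower, to 5 when Gata4 siRNA array 1 was dropped, to 4 for Gata4 siRNA array 2, to 5 for NT siRNA array 1 and to 6 for NT siRNA array 2. It was 8 when array 3 of either group was dropped. Calls over all probes, in either direction, also changed, from 1558 with all 6 arrays. They numbered 372 without Gata4 siRNA array 1, 257 without array 2 and 1052 without array 3. Without NT siRNA arrays 1, 2 or 3 they numbered 487, 723 and 1602. The loss of calls is thus not particular to the 10 genes.

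**Figure D1:**
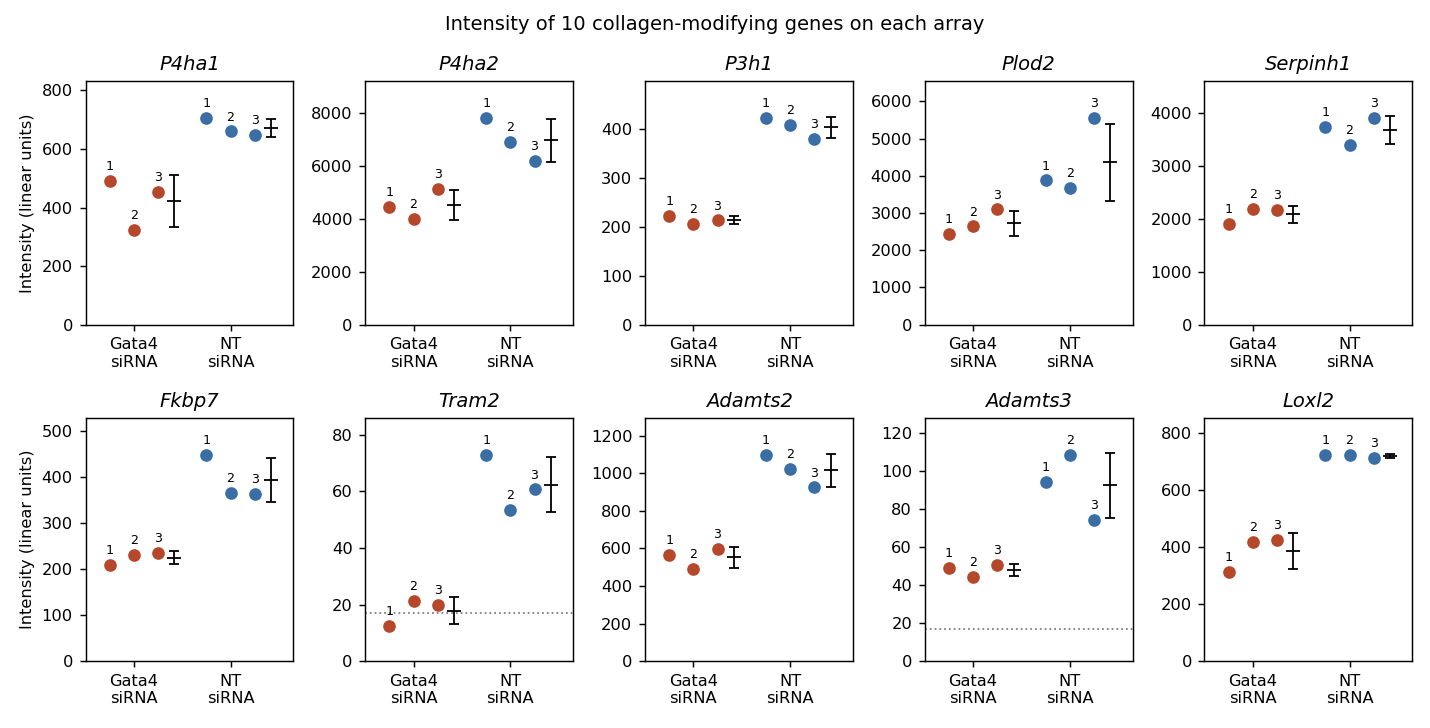
Deposited intensity (linear units, axis from 0) of the brightest probe of each of the 10 genes, with Gata4 siRNA arrays on the left and NT siRNA arrays on the right of each panel. Points are arrays 1 to 3, the bar beside them is the mean ± SD (n = 3), and the dotted line in the Tram2 and Adamts3 panels is the noise floor of 17.1. In no panel do the groups overlap.

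Prolyl 4-hydroxylase is an enzyme of the endoplasmic reticulum whose catalytic alpha subunits are encoded by P4ha1 and P4ha2. P4ha1 had intensities of 490.9, 323.3 and 454.5 on Gata4 siRNA arrays 1 to 3, against 705.1, 660.1 and 647.6 on NT siRNA arrays 1 to 3. Gata4 siRNA array 2 was the lowest of these and set most of the spread within the group. The mean was 423 ± 88.2 in Gata4 siRNA cells and 671 ± 30.2 in NT siRNA cells (SD, n = 3 each), a log2 difference of -0.67 ± 0.16 (SE). Without Gata4 siRNA array 2 the log2 difference of P4ha1 was -0.49. P4ha2 had 4450.3, 3998.0 and 5134.8 in Gata4 siRNA cells, against 7811.5, 6914.1 and 6193.0 in NT siRNA cells. The highest Gata4 siRNA array was still below the lowest NT siRNA array, and the log2 difference was -0.62 ± 0.14, the smallest of the 10 genes. A second P4ha2 probe, with means of 2074 in Gata4 siRNA cells and 3244 in NT siRNA cells, gave -0.65 ± 0.17. The differences of both catalytic subunits lay within 1 SE of each other.

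The promoters of P4ha1 and P4ha2 are shown because, of the promoters examined, they held the most matches to the hypoxia response core (ACGTG or GCGTG, searched on both strands). Each runs from 250 bases before to 50 bases after the gene start, is written 5′ to 3′ on the gene's strand, and has these matches in capitals. The sequences come from RefSeq on GRCm38.p6, at chr10:59323046-59323345, plus strand, for P4ha1 and at chr11:54100674-54100973, plus strand, for P4ha2.
P4ha1: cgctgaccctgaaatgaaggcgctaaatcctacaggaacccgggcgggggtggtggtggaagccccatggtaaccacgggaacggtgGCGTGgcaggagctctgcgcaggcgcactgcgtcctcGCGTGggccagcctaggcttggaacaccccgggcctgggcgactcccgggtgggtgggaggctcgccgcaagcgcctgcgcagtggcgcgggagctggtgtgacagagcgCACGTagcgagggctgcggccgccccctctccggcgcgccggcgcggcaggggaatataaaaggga
P4ha2: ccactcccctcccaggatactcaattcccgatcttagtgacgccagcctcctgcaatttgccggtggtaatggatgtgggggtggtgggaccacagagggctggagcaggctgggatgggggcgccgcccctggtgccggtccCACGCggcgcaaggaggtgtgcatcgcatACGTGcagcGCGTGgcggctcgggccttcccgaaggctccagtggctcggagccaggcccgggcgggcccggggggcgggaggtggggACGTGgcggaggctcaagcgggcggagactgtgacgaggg

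P3h1 encodes prolyl 3-hydroxylase 1, also called leprecan, which works in a complex with cartilage-associated protein and the isomerase Ppib. Its probes carry the older symbol Lepre1 in the authors' deposited table. The brightest probe had intensities of 221.7, 206.1 and 213.2 in Gata4 siRNA cells, against 422.3, 407.9 and 380.3 in NT siRNA cells. These were the tightest replicates of the 10 genes, with a pooled SD of 0.063 within groups on the log2 scale. The log2 difference was -0.87 ± 0.11 (SE). The other P3h1 probes gave -0.96 ± 0.13 and -0.84 ± 0.20, so that its 3 probes spanned 0.12. The complex partner Ppib had 6213.6, 6847.6 and 6914.1 in Gata4 siRNA cells, against 8233.4, 8263.6 and 8188.2 in NT siRNA cells. Its log2 difference of -0.31 ± 0.11 did not pass the limma threshold, although the groups did not overlap.

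Plod2 encodes a lysyl hydroxylase that acts on the telopeptides of fibrillar collagens and so sets the kind of cross-link formed later. Its brightest probe had 2437.2, 2641.8 and 3096.7 in Gata4 siRNA cells, against 3875.1, 3666.1 and 5549.0 in NT siRNA cells. NT siRNA array 3 lay well above the other NT siRNA arrays, and the pooled SD within groups, 0.260 on the log2 scale, was the widest of the 10 genes. The log2 difference was -0.66 ± 0.18 and did not pass. The second Plod2 probe showed the same high array, with 617.0, 636.2 and 644.9 in Gata4 siRNA cells, against 923.7, 887.8 and 1478.5 in NT siRNA cells, and a log2 difference of -0.74 ± 0.19. Without NT siRNA array 3 the log2 difference at the brightest Plod2 probe was -0.47, and the gene again did not pass.

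Serpinh1 encodes a heat shock protein of the endoplasmic reticulum that binds folded procollagen and is needed for its export. It had 1896.7, 2182.4 and 2157.2 in Gata4 siRNA cells, against 3724.6, 3388.8 and 3894.2 in NT siRNA cells. The gap from the highest Gata4 siRNA array to the lowest NT siRNA array exceeded the range within either group, and the log2 difference was -0.82 ± 0.12. Fkbp7 encodes a peptidyl-prolyl isomerase of the endoplasmic reticulum from the family that eases chain folding. It had 209.3, 231.9 and 235.4 in Gata4 siRNA cells, against 448.5, 366.8 and 364.3 in NT siRNA cells. NT siRNA array 1 was the high one here, and the log2 difference was -0.76 ± 0.13.

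Tram2 encodes a membrane protein of the translocation site of the endoplasmic reticulum that has been linked to synthesis of type I collagen. Its brightest probe had 12.6, 21.3 and 20.0 in Gata4 siRNA cells, against 72.9, 53.6 and 60.7 in NT siRNA cells. All 3 NT siRNA arrays were above the noise floor of 17.1, but only 2 of the 3 Gata4 siRNA arrays were. The filter of 3 arrays was thus met only with NT siRNA arrays, where the probe is high. Tram2 had the largest log2 difference of the 10 genes, -1.18 ± 0.14, but neither that size nor that rank was stable against the treatment of low signal. It was -1.82 where values were floored at 1, the largest again. With an offset of 50 it was -0.71, behind Loxl2, Adamts2, Serpinh1 and P3h1, and with 130 added it was -0.38, with only Adamts3 smaller. At the second Tram2 probe the Gata4 siRNA values of 7.0, 7.6 and 8.7 were all below the floor, against 42.5, 28.3 and 34.4 in NT siRNA cells. That probe gives a bound of at least 1.53-fold lower, computed on the log2 scale with the floor in place of the Gata4 siRNA values, and its fitted log2 difference was -0.90 ± 0.13. It entered the test only through the NT siRNA arrays, where it is high. The fitted value therefore rests on Gata4 siRNA values within background. The Tram2 promoter is shown because it had the most SP factor boxes (GGGCGG, on either strand) of the promoters examined, 9, along with 2 hypoxia response cores in capitals, at chr1:21079176-21079475, minus strand (RefSeq, GRCm38.p6).
Tram2: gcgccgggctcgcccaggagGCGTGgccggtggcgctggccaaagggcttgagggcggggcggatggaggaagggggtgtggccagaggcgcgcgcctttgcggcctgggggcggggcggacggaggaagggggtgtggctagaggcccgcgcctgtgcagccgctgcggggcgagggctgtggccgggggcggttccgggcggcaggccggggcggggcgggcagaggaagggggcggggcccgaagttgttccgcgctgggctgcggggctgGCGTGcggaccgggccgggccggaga

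**Figure D2:**
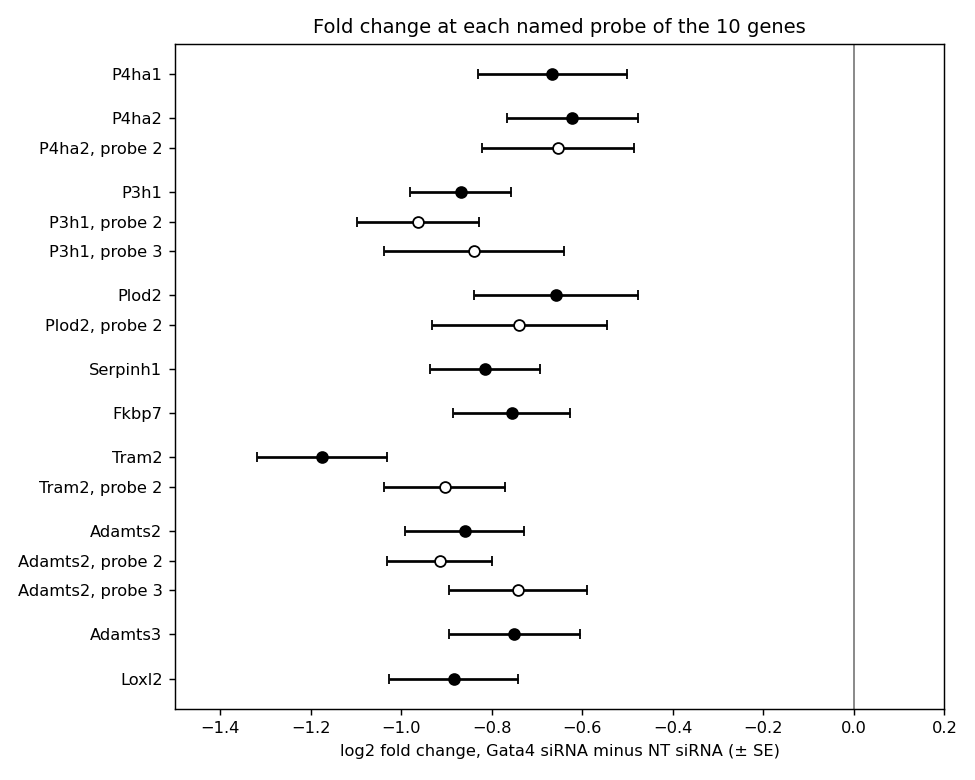
Log2 fold change (Gata4 siRNA minus NT siRNA, ± SE, 3 arrays per group) at each of the 17 named probes of the 10 genes. Filled points are the brightest probe of a gene and open points its other probes. All 17 points are below 0. The dimmer Tram2 probe supports only a bound, and among the other genes the widest span between probes is 0.17, for Adamts2.

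Adamts2 and Adamts3 encode secreted metalloproteases that cut the amino-terminal propeptide from fibrillar procollagens. Adamts2 had 567.9, 489.7 and 599.4 in Gata4 siRNA cells, against 1097.3, 1022.3 and 924.2 in NT siRNA cells. The groups stood far apart relative to their spread, with a log2 difference of -0.86 ± 0.13, and the other Adamts2 probes gave -0.92 ± 0.12 and -0.74 ± 0.15. Adamts3 was measured by a dimmer probe, with 49.2, 44.4 and 50.9 in Gata4 siRNA cells, against 94.7, 108.7 and 74.6 in NT siRNA cells. Most of the spread lay in the NT siRNA arrays, 92.7 ± 17.1, compared with 48.2 ± 3.37 in Gata4 siRNA cells (SD, n = 3), and the log2 difference was -0.75 ± 0.14. It was -0.32 for Adamts3 with 130 added to each value, a scale that shrinks the change of dim probes. The Adamts2 promoter is shown as the exception among those examined, since it held no hypoxia response core and was the single one with a heat shock pair (GAANNTTC, which reads the same on both strands), at chr11:50601835-50602134, plus strand (RefSeq, GRCm38.p6).
Adamts2: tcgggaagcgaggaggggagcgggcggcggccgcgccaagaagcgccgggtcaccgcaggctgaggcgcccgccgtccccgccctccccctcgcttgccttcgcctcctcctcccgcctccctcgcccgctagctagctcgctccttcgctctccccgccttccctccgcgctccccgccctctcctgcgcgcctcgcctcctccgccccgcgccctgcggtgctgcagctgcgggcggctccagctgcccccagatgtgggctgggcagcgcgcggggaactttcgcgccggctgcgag

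Loxl2 encodes a secreted oxidase that cross-links collagens, among them the network collagen of basement membranes. Its probe is deposited under the symbol of a predicted locus, LOC100047339, and took the name Loxl2 from the Entrez number beside it. The probe's sequence was not compared with the gene. It had 312.8, 416.8 and 426.0 in Gata4 siRNA cells, against 721.3, 722.3 and 710.8 in NT siRNA cells. The NT siRNA arrays were nearly identical (718 ± 6.37) and the Gata4 siRNA arrays less so (385 ± 62.9, SD, n = 3), and the log2 difference was -0.88 ± 0.14.

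The 10 genes varied among themselves within a narrow range. Apart from Tram2, their log2 differences ran from -0.88 to -0.62, with SEs from 0.11 to 0.18, so that neighbours in that order lay within 1 SE of each other. The mean of the 10 genes, as a log2 difference from the NT siRNA mean, was -0.86, -0.86 and -0.70 on Gata4 siRNA arrays 1 to 3, against 0.07, -0.04 and -0.04 on NT siRNA arrays 1 to 3. Gata4 siRNA array 3 was the highest of its group for 6 of the 10 genes and the lowest for 0, while arrays 1 and 2 were each the lowest for 5. Among controls, NT siRNA array 1 was the highest for 6 genes and NT siRNA array 3 the lowest for 7.

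**Figure D3:**
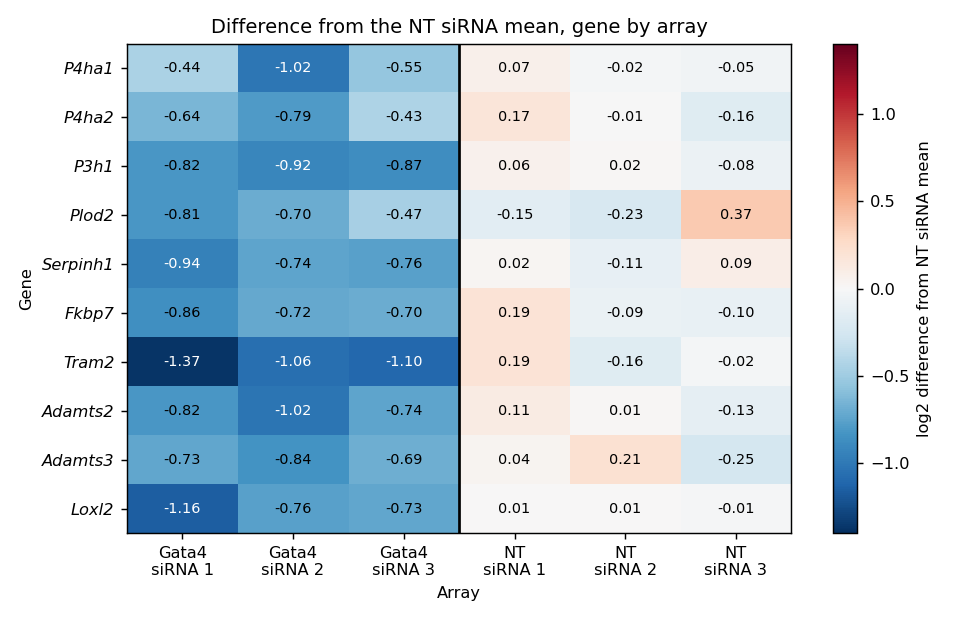
Log2 difference of each gene (rows) on each array (columns) from that gene's NT siRNA mean, at the brightest probe. Gata4 siRNA columns are left of the line and NT siRNA columns right of it. The Gata4 siRNA cells run from -1.37 (Tram2, array 1) to -0.43 (P4ha2, array 3), and the highest NT siRNA value is 0.37 (Plod2, array 3).

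Of the 10 genes, 8 had an entry in the RefSeq promoter table, Loxl2 and Plod2 being the others, with 9 starts in all since P3h1 has 2. A gene counts as having a motif if any of its starts has a match, while the shares over all promoters count each promoter. A hypoxia response core (ACGTG or GCGTG) was present for 7 of these 8 genes and in 8 of their 9 promoters, against 43.8% of all 32851 promoters of the same length. An SP factor box (GGGCGG) was present for 8 of 8 genes and in 9 of 9 promoters, against 35.7% of all promoters. A CCAAT box (CCAAT) was present for Fkbp7 and P3h1, in 3 of 9 promoters, against 37.4% of all promoters. A heat shock pair was present for Adamts2 alone, in 1 of 9 promoters, against 7.86%. A GATA element, AGATAA with A or T as its first letter and A or G as its last, was present for 0 of 8 genes and in 0 of 9 promoters, against 29.8% of all promoters. All motifs were searched on both strands, and matches were allowed to overlap. The promoters of these genes were rich in G and C, from 54.7% to 79.7% with a median of 70.3%, compared with a median of 52.7% over all promoters. Base composition alone changes how often such short letters occur, and its part in these shares was not tested. A match is a string of letters and was not measured as a bound site, and the absence of one speaks only of this window.

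**Figure D4:**
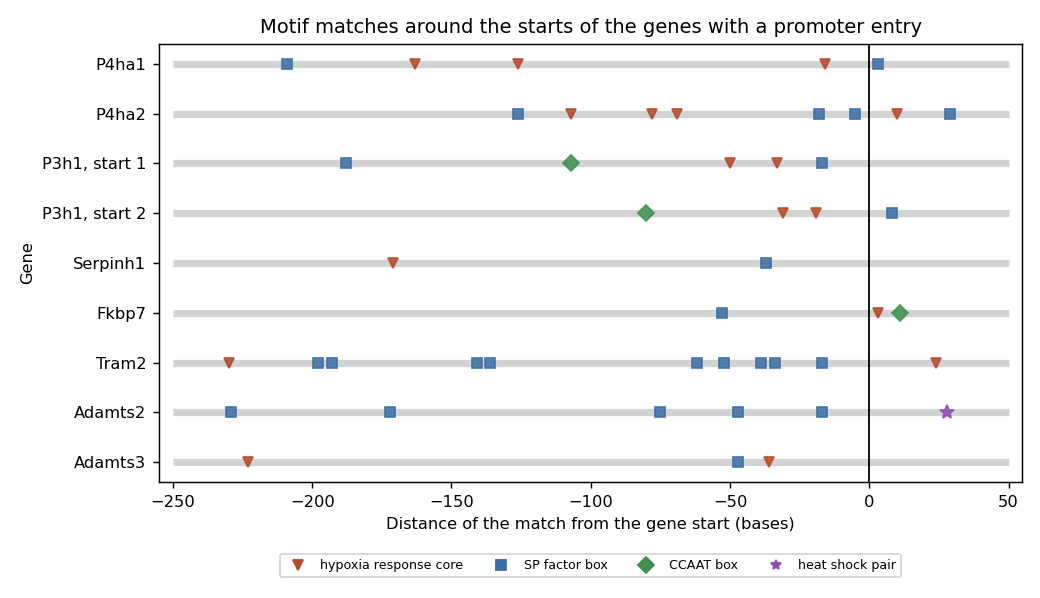
Matches to 4 motifs in the 9 promoter windows of the 8 genes with an entry, as distance in bases from the gene start (0), counted from the first base of the match in the direction of the gene. Triangles are hypoxia response cores, squares SP factor boxes, diamonds CCAAT boxes and the star a heat shock pair. Tram2 has the most squares, 9, and P4ha2 the most triangles, 4.

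Other genes of the collagen pathway did not all move the same way. Of 48 further genes listed for hydroxylation, folding, export, propeptide cleavage, cross-linking and breakdown, only 6 had a name here, because names come from the authors' called probes, and the rest are not analysed. In the limma fit 1 of the 6 was lower, 2 were higher and 3 did not pass, with a median log2 difference of -0.29, beside 4.71% of all probes called lower and 4.07% called higher. Among the named genes, which had all entered the authors' table, 29.5% were called lower and 25.9% higher, with a median log2 difference of 0.27, and the lists below are to be read against these shares. Sparc, a secreted collagen-binding glycoprotein, fell by 0.62 on the log2 scale (SE 0.12). Pcolce2, an enhancer of carboxy-terminal propeptide cleavage, rose by 0.60 ± 0.12, whereas the related enhancer Pcolce was at -0.27 ± 0.11 and did not pass. Mbtps1, a Golgi protease that activates membrane-bound transcription factors, had 54.2, 49.8 and 41.3 in Gata4 siRNA cells, against 15.6, 20.1 and 9.0 in NT siRNA cells, where 1 of 3 arrays was above the noise floor. It entered the test through the Gata4 siRNA arrays, where it is high, so its call as higher and its fitted log2 difference of 1.00 ± 0.14 rest on NT siRNA values near background. Sec24d, a coat protein of the vesicles that carry procollagen out of the endoplasmic reticulum, was at -0.58 ± 0.17 and did not pass.

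The collagens are the substrates of these enzymes. Of 41 collagen genes listed, 10 had a name, of which 5 were lower, 1 was higher and 4 did not pass, with a median log2 difference of -0.58. The 3 brightest were Col5a1 at -0.29 ± 0.11, Col6a1 at -0.52 ± 0.14 and Col4a1 at -0.60 ± 0.17, none of which passed in the limma fit. The 5 called lower, named after their values were seen, included the fibrillar chains Col1a1 at -1.24 ± 0.14, Col1a2 at -1.06 ± 0.13 and Col3a1 at -1.05 ± 0.13. The others were the basement membrane chain Col4a5 at -0.66 ± 0.11 and the network chain Col8a1 at -0.42 ± 0.11. Col4a1, a basement membrane chain, had 2756.3, 3016.0 and 3229.7 in Gata4 siRNA cells, against 4133.4, 3917.3 and 5812.4 in NT siRNA cells, with the same high array 3 as Plod2. The exception in direction, also named after its values were seen, was Col22a1, a collagen of tissue junctions, which had 213.5, 289.4 and 269.3 in Gata4 siRNA cells, against 98.5, 113.4 and 89.7 in NT siRNA cells, and rose by 1.23 ± 0.15.

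A further list held general chaperones and secretory stress genes of the endoplasmic reticulum. Of 32 listed, 10 had a name, of which 4 were lower, 0 higher and 6 did not pass, with a median log2 difference of -0.49. The 3 brightest were the chaperone Hsp90b1 at -0.39 ± 0.13, the disulfide isomerases Txndc5 at -0.28 ± 0.12 and Pdia4 at -0.46 ± 0.12, none of which passed. The 4 called lower were the stress transcription factors Ddit3 at -0.86 ± 0.19 and Atf4 at -0.52 ± 0.12, the degradation adaptor Sel1l at -0.60 ± 0.12 and the disulfide isomerase Pdia5 at -0.76 ± 0.13. The largest fall of the list, -0.89 ± 0.24 for the translocation channel gene Sec61b, did not pass. The cochaperones Dnajb9 at 0.29 ± 0.11 and Dnajc3 at 0.43 ± 0.11 had positive values and did not pass. The genes of this list beyond the 3 brightest were named after their values were seen. Of 32 hypoxia genes listed, 14 had a name, of which 10 were lower, 0 higher and 4 did not pass. Their median log2 difference was -0.74, with a range from -1.68 for Ndrg1 to -0.27 for Vegfa, both named after their values were seen. The fall of Ndrg1 was larger than that of any of the 10 collagen-modifying genes. The 3 brightest were the glucose transporter Slc2a1, which fell by 0.67 (SE 0.12), the hexokinase Hk2, named through its Entrez number, at -0.40 ± 0.11 without passing, and the mitophagy receptor Bnip3l, which fell by 0.53 (SE 0.12).

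**Figure D5:**
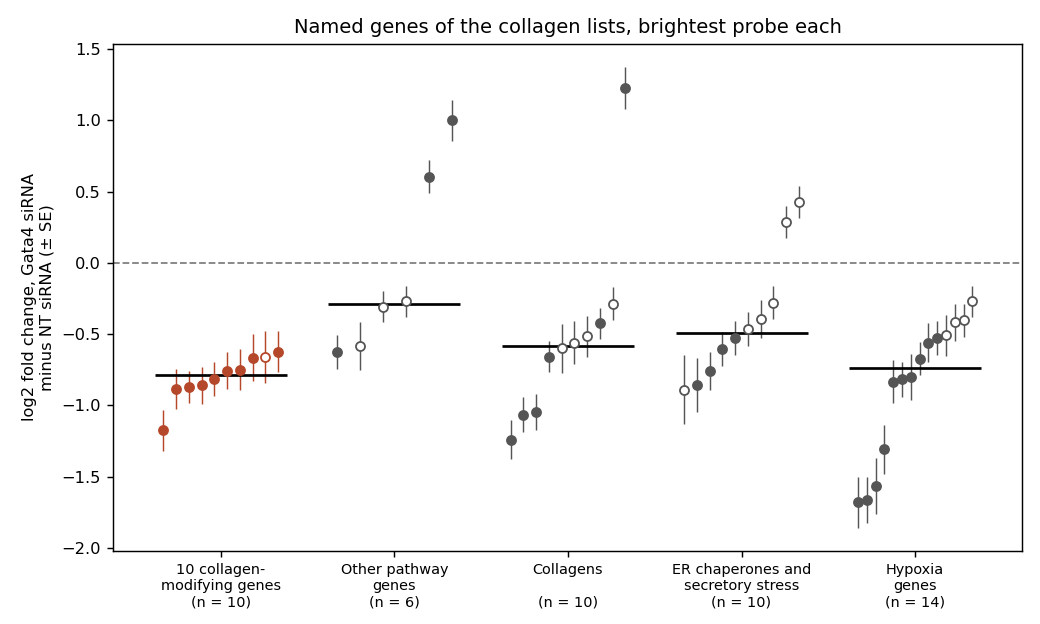
Log2 fold change (Gata4 siRNA minus NT siRNA, ± SE) at the brightest probe of each named gene, for the 10 collagen-modifying genes and for the named genes of 4 further lists. Filled points passed the limma threshold, open points did not, and the line is the median of each list, from -0.79 for the 10 genes to -0.29 for the other pathway genes. ER is the endoplasmic reticulum.

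Among 1979 other named genes, the profiles over the 6 arrays closest to the mean of the 10 genes were those of Medag, Pqlc3, Lgals9 and Casp9. Likeness was the root mean square distance between log2 profiles taken relative to the NT siRNA mean, and it was 0.029 for Medag, 0.044 for Pqlc3, 0.050 for Lgals9 and 0.059 for Casp9. Medag, an adipogenesis gene, had a log2 difference of -0.84 ± 0.11, and Casp9, an initiator caspase, one of -0.81 ± 0.12. The mean profile differs mainly between the groups, so closeness here mostly means a group difference of similar size. All genes compared had entered the authors' table on these arrays, and the order is a description only.

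Some cell type markers differed between the same groups. Of 10 smooth muscle and peritubular myoid markers 5 had a name, of which 4 were higher and 1 did not pass. Higher were Acta2 at 0.53 ± 0.12, Actg2 at 0.73 ± 0.12, Mylk at 0.72 ± 0.16 and Tagln at 0.93 ± 0.15. Myl9, at 0.33 ± 0.12, did not pass. The summed intensity of the 5 genes was 20628 to 23031 on Gata4 siRNA arrays, against 14165 to 15656 on NT siRNA arrays. Most of that sum was Acta2, with a mean of 16890 in Gata4 siRNA cells and 11686 in NT siRNA cells. The fibroblast marker Dcn, the 1 of 6 with a name, was at 0.33 ± 0.11 and did not pass. Of 26 Sertoli markers 3 had a name. Sox9 was higher, at 0.59 ± 0.11. Inhbb, named through its Entrez number, was lower at -0.53 ± 0.12, as was Tjp1 at -0.67 ± 0.16. Their summed intensity, which mixes both directions, was 2822 to 3012 on Gata4 siRNA arrays, against 2946 to 3343 on NT siRNA arrays. Of 8 macrophage and leukocyte markers Cd14 was the 1 with a name, at 0.39 ± 0.12, and did not pass. None of the Leydig, germ or endothelial markers had a name. Whether any of these bears on the lower level of the 10 genes was not tested.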

How the data were processed

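RNA of the 6 samples was measured on Illumina mouse whole-genome BeadChips, per the labels' protocols. Each probe has a single deposited intensity on each array. The submitters' processing notes name GenomeStudio, with settings not given in the sources used here. Of the deposited intensities 37.09% lie below 0. Another 18 value columns carry names that fit no label, and these were left out.

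Intensities were treated with normexp (background mean 0, SD 9.40 from the values below 0), 16 was added and log2 taken, which understates changes of dim probes. The package limma 3.58.1 in R 4.3.3 compared groups (lmFit, eBayes, two-sided, Benjamini-Hochberg over all 17740 probes). The fit was tested on simulated data.

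Names came from the symbols and Entrez numbers of the authors' deposited table, updated through RefSeq (GRCm38.p6). The brightest named probe stands for a gene. The fold change and p columns of that table were not used. The members, lists and tests were chosen with earlier results of these data known. Named were all members, all named genes of the other pathway list, the 3 brightest of each further list, the 5 closest profiles, of which 1 is not reported here, and the named markers. Figures used matplotlib 3.10.9.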

Additional observations from a re-analysis of the deposited data

How the results depend on the processing

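Under 18 alternatives all 179 log2 differences of the 10 genes stayed below 0, and 11 of them moved by more than the spread between replicates, all where dim values were treated otherwise. The median log2 difference of the 10 genes was -0.85 with values floored at 1 or at the noise floor, -0.695 with an offset of 50 and -0.62 with 130 added, and -0.84 to -0.76 with 1 array left out. With 1 array left out, the count of the 10 genes called lower was 4 to 8, of all probes changed 257 to 1602, and of other pathway genes lower 0 to 1 and higher 1 to 2. Serpinh1, P3h1, Loxl2 and Tram2 were called in every alternative in which they were tested. Tram2 was not tested where probes had to be above the floor on all 6 arrays, and in the reported setting it met the filter only with NT siRNA arrays. Plod2 was not called in 14 of 19 settings, P4ha1 in 10, P4ha2 in 8, Adamts3 in 5, Fkbp7 in 3 and Adamts2 in 1, the reported setting included. Every setting used the arrays from which the authors had selected the genes, so repeated calls are a description and no support. All probes changed numbered 1558 as reported, 734 with values floored at 1, 2518 with 130 added, 2377 with an intensity trend and 3079 with array weights. Other pathway genes called lower numbered 2 with an offset of 50, 4 with 130 added, 2 with probes above the floor on all 6 arrays, 3 with an intensity trend and 2 with array weights, and those called higher numbered 1 with probes above the floor on all 6 arrays, where Mbtps1 was not tested. With a replicate block, 736 probes changed, 6 of the 10 genes and 0 other pathway genes were called lower, and 1 other pathway gene was called higher. The deviations of same-numbered arrays from their group means correlated at -0.055, -0.0884 and -0.0113, and those of differently numbered arrays at -0.1343 to 0.2153. With 3 arrays per group, these correlations cannot show whether samples were paired, by number or otherwise. The cause of these differences was not tested. The precision is limited by 3 arrays per group and, for Tram2 and Adamts3, by low signal.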

Other observations

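NT siRNA array 3, which had the lowest array weight, was the highest control array for 2 of the 10 collagen-modifying genes, Plod2 and Serpinh1, and the lowest for 7. At the brightest Plod2 probe it had 5549.0, against 3875.1 and 3666.1 on NT siRNA arrays 1 and 2. NT siRNA array 3 was the highest control array for 4 of 10 collagens, 4 of 10 chaperone and secretory stress genes and 6 of 14 hypoxia genes. It was so for 0 of 5 named smooth muscle markers. NT siRNA array 1 was the highest for 4 collagens, 3 chaperone and secretory stress genes and 6 hypoxia genes. These counts thus do not set array 3 apart, and the share over all probes was not computed. These values were noticed after the data were seen, and groups of 3 arrays were not tested for outlying samples.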
